A study of Mus musculus with 6 samples.

Results

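The 5 genes described here encode the growth cone protein GAP43, its close functional relatives BASP1, MARCKS and MARCKSL1, and the microtubule-associated protein MAP2. They were chosen by symbol, with earlier results of these data known, and all 5 were found among the 12151 genes of the deposited expression table. RNA-seq was done on 6 libraries of cultured mouse glioma cells. GL261, an established mouse glioma line, grew in medium with fetal bovine serum, and its 3 libraries (replicates 1 to 3) are titled passages 17, 33 and 34 and labelled as differentiated glioma cells. For the third library the passage field says 33, while the title says 34. The mNS cells grew as neurospheres, free-floating clusters, in DMEM/F12 with B-27 supplement, basic fibroblast growth factor, epidermal growth factor and heparin. Their 3 libraries (replicates 1 to 3) come from passages 72, 77 and 85 and are labelled as glioma stem-like cells. Both media held penicillin, streptomycin, HEPES, glutamine and beta-mercaptoethanol. The libraries of a group carry 1 cell name and differ in passage, and the labels name no separate animals or derivations, so each p-value reflects only how far these libraries spread. Cell line, medium and passage range differ together between the groups and cannot be told apart.

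Growth cones are the motile tips of growing axons and processes. GAP43, BASP1, MARCKS and MARCKSL1 are unfolded, acidic proteins on the inner face of the plasma membrane there. They gather the lipid PIP2, which controls actin assembly, and let go of it when calmodulin binds them or, for most of them, when protein kinase C phosphorylates them. GAP43 is best known from growing and regenerating axons and is also made by glial progenitors and glioma cells, MARCKS and MARCKSL1 are made in many cell types, and MAP2 stabilises microtubules, chiefly in dendrites, with short forms in young neural cells and some glia.

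The coding starts show how the 4 membrane proteins are anchored, which is why the first 12 codons of each are shown, read from GENCODE M21 transcripts (GRCm38), 5′ to 3′. Capitals mark the cysteine codons, which in GAP43 carry the fatty acid palmitate, and the glycine codon after the start codon, to which myristate is added in the other 3.
Gap43: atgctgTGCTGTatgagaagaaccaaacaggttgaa
Basp1: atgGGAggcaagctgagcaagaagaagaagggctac
Marcks: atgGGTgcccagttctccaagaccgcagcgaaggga
Marcksl1: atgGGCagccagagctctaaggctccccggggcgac
Map2: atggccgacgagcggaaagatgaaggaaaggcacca
Gap43 has cysteine codons at positions 3 and 4 and no glycine codon at position 2. Basp1, Marcks and Marcksl1 have the glycine codon and no cysteine codon in this stretch, and Map2, which is not a membrane protein, has neither. Alanine, glutamate, lysine and proline codons made up 70.8% of the 226 Basp1 codons, 63.8% of the 309 Marcks codons, 55.9% of the 227 Gap43 codons and 49.5% of the 200 Marcksl1 codons, against 36.05% of the 1828 codons of the longest Map2 transcript.

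Marcks and Marcksl1 are the 2 members of 1 gene family, and both carry a short basic stretch, the effector domain, through which they bind PIP2, calmodulin and actin. It is shown as the 25 codons richest in lysine and arginine codons in each coding sequence, with the serine codons, among which lie the sites of protein kinase C, in capitals.
Marcks: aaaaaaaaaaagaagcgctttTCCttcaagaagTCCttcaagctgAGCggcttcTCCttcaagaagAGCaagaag
Marcksl1: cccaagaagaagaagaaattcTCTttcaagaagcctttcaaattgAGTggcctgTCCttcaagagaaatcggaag
The Marcks window spans codons 145 to 169 and holds 13 lysine or arginine codons and 5 serine codons. The Marcksl1 window spans codons 86 to 110 and holds 12 and 3. Marcksl1 had 2 windows equally rich in these codons, of which the first is shown. The windows were identical at 52 of 75 bases, and the whole coding sequences at 70.1% of 598 aligned bases.

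Between 12534422 and 14225175 reads per library fell in listed genes, and 1 read was worth between 0.0708 and 0.0773 CPM. CPM are read counts scaled to library size, here adjusted by TMM factors per the series text. The listed values summed to 1027692 to 1037864 CPM in the GL261 libraries and 968335 to 969269 in the mNS libraries. Libraries of a group correlated at r = 0.987 to 0.997 across genes and libraries of different groups at 0.845 to 0.856; genes are not independent replicates. Differences are given as log2 differences of CPM + 1, mNS minus GL261, a scale that understates the change of low genes, and folds are ratios of mean CPM. Genes with an adjusted p under 0.05 in limma were counted as called. By this rule 5 of the 5 genes passed, 3 higher and 2 lower in mNS. The same held for 64.3% of the 12006 tested genes, 32.2% being higher and 32.1% lower. This even split depended on the scaling: 4456 genes were higher and 3198 lower with the columns brought to a common sum, against 3865 and 3849. For none of the 5 did any GL261 library overlap the mNS libraries, as was true of 69.9% of all genes tested. A called difference of at least 1 in log2 size was found for 4 of the 5 and for 19.7% of all genes. The median difference was 0.67 over the 5 genes, which is the value of Map2, and -0.0027 over all genes. The 5 genes ran from -1.41 (Basp1) to 5.73 (Gap43), so this median describes no common shift.

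**Figure D1:**
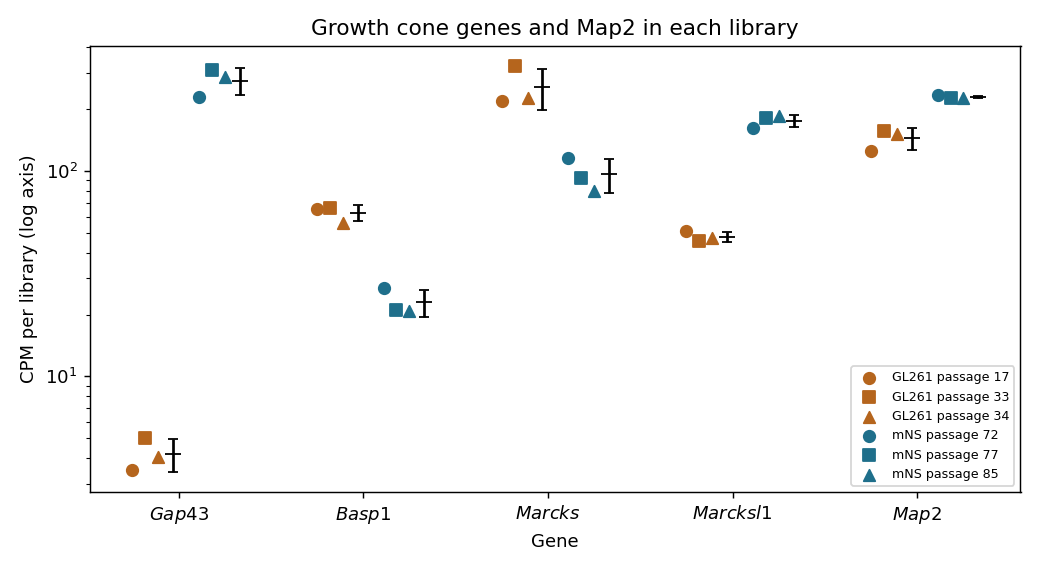
CPM of the 5 genes in each library on a log axis, with GL261 in brown and mNS in blue, marker shapes for the passages, and the mean with SD (n = 3) beside each group. Gap43 moved from 3.50 to 5.01 CPM in GL261 to 229 to 310.1 CPM in mNS, Marcksl1 and Map2 were higher in mNS, and Basp1 and Marcks were lower.

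Gap43 (ENSMUSG00000047261.9, chromosome 16, 42248442 to 42340651, minus strand, GRCm38) had the largest difference of the 5. It stood at 3.50, 5.01 and 4.05 CPM in GL261 at passages 17, 33 and 34, which is 47, 67 and 56 reads. In mNS it stood at 229, 310.1 and 286 CPM at passages 72, 77 and 85, which is 3035, 4011 and 4045 reads. The lowest mNS library was 45.8-fold above the highest GL261 library. The group means were 4.19 ± 0.762 and 275 ± 41.6 CPM (SD, n = 3 each), a 65.8-fold difference (log2 difference 5.73 ± 0.14 SE, limma adjusted p = 1.70e-08). It was rank 19 among all rises in mNS. Within each library, Gap43 lay above 13.2% to 16.6% of listed genes in GL261 and above 93.3% to 96.1% in mNS, ranks that are not corrected for gene length. The spread between GL261 libraries (coefficient of variation 18.2%) was near the 13.3% that counting about 57 reads gives, whereas in mNS it was 15.1% against 1.64%.

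Basp1 (ENSMUSG00000045763.8, chromosome 15, 25363277 to 25413764, minus strand) encodes a protein that, like GAP43, binds calmodulin at the membrane and is enriched in growth cones. It went the other way. Its values were 65.2, 66.3 and 56.1 CPM in GL261 and 27.0, 21.1 and 20.9 CPM in mNS at rising passages. All mNS values were below all GL261 values, the nearest of them by 2.08-fold. Basp1 fell 2.72-fold, from 62.5 ± 5.57 to 23.0 ± 3.48 CPM (log2 difference -1.41 ± 0.12 SE, limma adjusted p = 1.31e-05). Within mNS the passage 72 library was the highest, 1.29-fold above the lowest.

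Gap43 and Basp1 thus stood in opposite order in the groups. Per length, Gap43 made up 6.56%, 8.98% and 8.60% of the summed level of the pair in the GL261 libraries and 91.7%, 95.05% and 94.7% in the mNS libraries. The log2 ratio of Gap43 to Basp1, taken on CPM + 1 and not corrected for length, was -3.62 ± 0.221 in GL261 and 3.52 ± 0.423 in mNS (SD, n = 3 each). The difference of 7.14 had an exact two-sided permutation p of 0.1, which is the smallest that 3 libraries against 3 can give.

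The 2 MARCKS family genes moved in opposite directions. Marcks (ENSMUSG00000069662.5, chromosome 10, 37133375 to 37138920, minus strand) stood at 219, 324 and 227 CPM in GL261 and at 116, 92.6 and 80.2 CPM in mNS. All 3 GL261 libraries lay above the mNS libraries, with passage 33 the highest and a smallest gap of 1.89-fold between the groups. Marcks fell 2.67-fold, from 256 ± 58.3 to 96.2 ± 18.1 CPM (log2 difference -1.40 ± 0.17 SE, limma adjusted p = 0.000125). It was also the gene with the largest relative spread in each group, with a coefficient of variation of 22.7% in GL261 and 18.8% in mNS, against 1.70% and 2.79% from counting.

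Marcksl1 (ENSMUSG00000047945.6, chromosome 4, 129513581 to 129515985, plus strand), the smaller member of the family, stood at 51.0, 45.7 and 47.0 CPM in GL261 and at 162, 181 and 184 CPM in mNS. The libraries of each group lay close together, within 1.11-fold in GL261 and 1.14-fold in mNS, and the groups were 3.18-fold apart at their nearest. Marcksl1 rose 3.67-fold, from 47.9 ± 2.75 to 176 ± 11.8 CPM (log2 difference 1.85 ± 0.08 SE, limma adjusted p = 1.83e-07). A processed pseudogene, Marcksl1-ps4, is annotated elsewhere in the genome and is not listed in the table, so how reads shared with it were counted was not tested.

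In GL261, Marcks made up 63.0%, 73.7% and 65.7% of the family's level per length, and in mNS 22.04%, 16.9% and 14.7%. The log2 ratio of Marcks to Marcksl1, taken on CPM + 1 and not corrected for length, went from 2.38 ± 0.374 to -0.88 ± 0.361 (SD, n = 3 each). Its size in a group therefore does not match the shares per length. The difference of -3.25 again had the smallest exact two-sided permutation p that this design allows, 0.1, and adjusting over both ratios left it at 0.1.

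**Figure D2:**
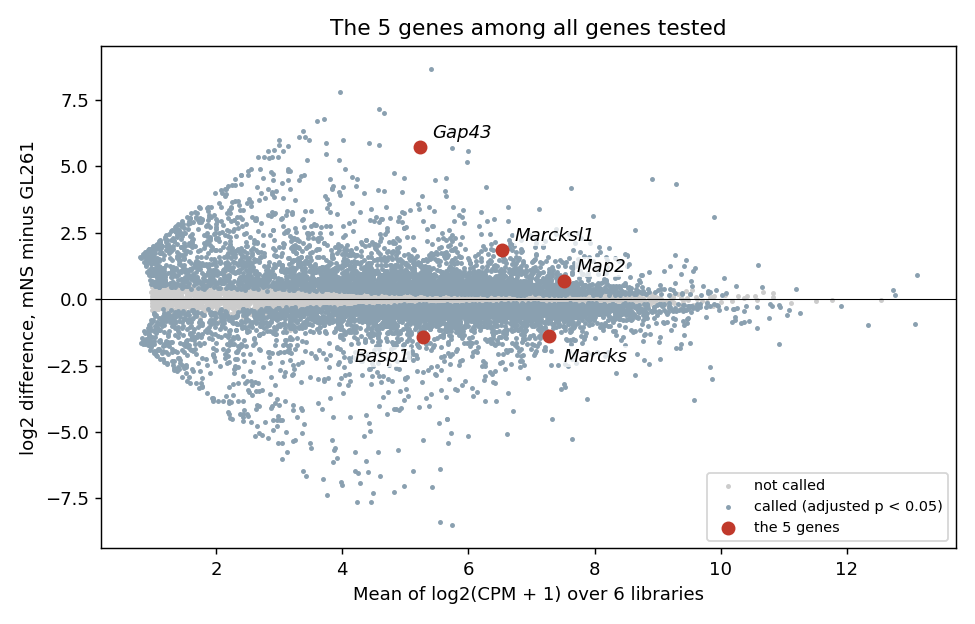
Log2 difference (mNS minus GL261) against the mean of log2(CPM + 1) over 6 libraries for the 12006 genes tested, with called genes in blue-grey, other genes in light grey and the 5 genes in red. Gap43 lies at 5.73, far from most genes of its level, while Marcksl1 (1.85), Basp1 (-1.41), Marcks (-1.40) and Map2 (0.67) lie within the cloud of called genes.

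Levels can be compared between genes only per length, here as CPM per kb of the longest coding transcript in GENCODE M21. In GL261 the order of mean levels was Marcks (63.4 ± 14.4 CPM per kb), Basp1 (33.7 ± 3.002), Marcksl1 (29.8 ± 1.71), Map2 (23.0 ± 2.71) and Gap43 (2.95 ± 0.536). Basp1 and Marcksl1 overlapped, with libraries at 30.3 to 35.7 and 28.5 to 31.8 CPM per kb. In mNS the order was Gap43 (194 ± 29.3 CPM per kb), Marcksl1 (110 ± 7.38), Map2 (36.6 ± 0.571), Marcks (23.8 ± 4.47) and Basp1 (12.4 ± 1.88), with no overlap between neighbours. The gene at the bottom of the order in GL261 was thus at the top in mNS. The place of Map2 depends on the length used: its longest coding transcript has 6258 bases and all its annotated exons together 16449, and with the latter it lay at 8.76 CPM per kb in GL261 and at 13.9 in mNS, below Marcks. By that length its libraries in mNS, at 13.8 to 14.2 CPM per kb, stood just above the 10.4 to 13.5 of Basp1.

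The 4 membrane genes together came to 123, 148 and 118 CPM per kb in the GL261 libraries and 306, 365 and 348 in the mNS libraries. Of this sum, Marcks held 48.4% ± 5.24 in GL261 and 7.11% ± 1.97 in mNS, and Basp1 26.1% ± 2.18 and 3.71% ± 0.920 (SD, n = 3 each). Gap43 held 2.26% ± 0.229 and 56.9% ± 3.63, and Marcksl1 23.2% ± 3.46 and 32.3% ± 1.28. The higher sum in mNS was therefore made up mostly of Gap43 and Marcksl1. These shares describe RNA and not the amount of protein.

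**Figure D3:**
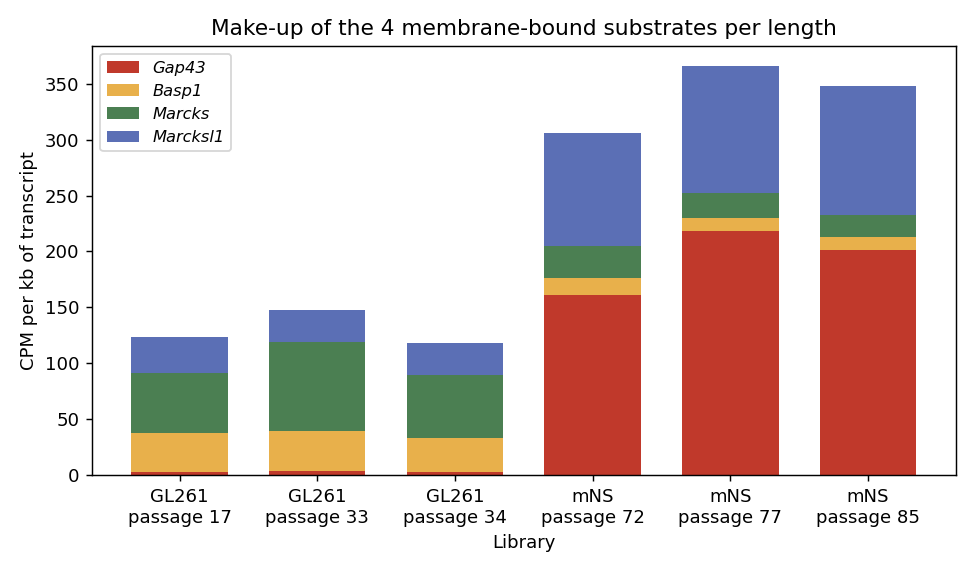
Stacked CPM per kb of transcript of Gap43, Basp1, Marcks and Marcksl1 in each of the 6 libraries. The GL261 bars reach 118 to 148 CPM per kb and are mostly Marcks, Basp1 and Marcksl1, and the mNS bars reach 306 to 365 and are mostly Gap43 and Marcksl1.

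Map2 (ENSMUSG00000015222.17, chromosome 1, 66175273 to 66442583, plus strand) had the smallest difference of the 5. It stood at 125, 157 and 151 CPM in GL261 and at 233, 227 and 227 CPM in mNS. Every mNS library lay above every GL261 library, by at least 1.45-fold. Map2 rose 1.59-fold, from 144 ± 17.0 to 229 ± 3.58 CPM (log2 difference 0.67 ± 0.09 SE, limma adjusted p = 0.000177). The mNS libraries differed by no more than counting allows, with a coefficient of variation of 1.56% against 1.80% from counting, while those of GL261 varied by 11.8% against 2.26%. The table has 1 value per gene, so the short and long forms of MAP2, which 24 annotated transcripts cover, cannot be told apart. An antisense gene, Gm10558, lies within Map2 on the other strand and is not listed; the sources used here do not say whether reads were counted by strand.

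Genes that act on these proteins, and other genes of growth cones, the membrane cortex and microtubules, were then counted on 9 lists in the same fit. These are called partner lists below, and 64.3% of all tested genes called is the background. Protein kinase C, the kinase of GAP43 and the MARCKS proteins, split by isoform: of 7 genes tested, 3 rose and 3 fell. The classical isoform gene Prkca fell from 103 ± 15.7 to 22.6 ± 3.11 CPM (log2 difference -2.14), and the atypical Prkci fell from 249 ± 15.6 to 73.2 ± 1.31 CPM (-1.75). Prkcz, another atypical isoform gene, rose from 1.11 ± 0.670 to 16.5 ± 1.42 CPM, 14.8-fold and 22.3-fold without GL261 replicate 1. Prkcq, an isoform gene best known from T cells, counted 2 reads in GL261 in all and 1033 in mNS, 521 times as much per library size, with an exact 95% binomial interval of 144 to 4306, which covers counting error only. The summed level of the listed isoform genes lay between 376 and 422 CPM in GL261 and between 225 and 234 CPM in mNS, and Prkcb and Prkch were not listed. Most of the GL261 sum was Prkci, so the sum does not describe the isoforms in common. Of the isoform genes not named by the rule, Prkcd rose from 22.3 ± 2.98 to 72.7 ± 1.29 CPM (1.67), and Prkce fell from 22.1 ± 3.49 to 16.1 ± 0.889 CPM (-0.42).

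Of 10 tested genes for calmodulin and the enzymes it controls, 2 rose, 1 fell and 7 were not called. That is 30.0% called, beside 64.3% of all genes. Of the 3 calmodulin genes Calm2 rose, from 372 ± 50.0 to 506 ± 13.6 CPM (log2 difference 0.45). The kinase subunit gene Camk2b rose from 0.689 ± 0.116 to 2.42 ± 0.922 CPM and Camk2d fell from 56.6 ± 7.61 to 32.9 ± 5.77 CPM. Nrgn and Pcp4, small calmodulin-binding proteins of neurons, were not listed.

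Of 16 genes on the list for the fatty acid anchors, 2 rose and 8 fell. Most encode enzymes that add or remove the anchors. The list also holds the methionine aminopeptidase genes Metap1, which was not called, and Metap2, which is among the genes that fell. Zdhhc2, a palmitoyltransferase gene, fell from 196 ± 26.5 to 48.2 ± 6.22 CPM (log2 difference -2.00), and Lypla1, a thioesterase gene, fell from 85.8 ± 8.502 to 49.3 ± 5.50 CPM (-0.79). The risers were the palmitoyltransferase gene Zdhhc17, from 38.7 ± 2.36 to 71.0 ± 3.57 CPM (0.86), and Nmt2, which encodes 1 of the 2 myristoyltransferases, from 59.8 ± 2.62 to 89.1 ± 4.17 CPM (0.57). Of 18 genes for making and breaking down PIP2, 7 rose and 2 fell. The phospholipase C genes Plcb3 (54.1 ± 4.63 to 129 ± 7.21 CPM) and Plcg1 (55.6 ± 4.47 to 101 ± 2.14 CPM) rose, and Plcd3 fell (25.7 ± 1.38 to 16.2 ± 0.232 CPM). The lipid kinase gene Pip4k2a rose from 13.2 ± 0.846 to 19.0 ± 3.24 CPM (limma adjusted p = 0.0133), and missed the threshold without GL261 replicate 2 (0.0519) and without mNS replicate 2 (0.0586). The median difference was -0.16 for the anchor genes and 0.16 for the PIP2 genes.

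Other growth cone genes went both ways: of 22 tested, 8 rose, 9 fell and 5 were not called, with a median difference of -0.06. L1cam, an adhesion molecule of axons, fell from 308 ± 59.4 to 8.29 ± 1.58 CPM (log2 difference -5.05). Tubb3, the neuronal beta-tubulin, fell from 234 ± 11.7 to 8.85 ± 4.43 CPM (-4.68), and Ncam1, a neural adhesion molecule, from 20.3 ± 11.9 to 0.980 ± 0.518 CPM (-3.23). Rtn1, a reticulon gene of the endoplasmic reticulum, rose from 0.563 ± 0.371 to 13.5 ± 2.83 CPM (3.23). Among the collapsin response mediator genes, chosen after their values were seen, Crmp1 rose from 30.5 ± 2.54 to 172 ± 9.11 CPM, Dpysl3 from 7.52 ± 3.04 to 62.2 ± 6.80 CPM and Dpysl5 from 0.394 ± 0.262 to 4.41 ± 0.422 CPM (11.2-fold, and 17.3-fold without GL261 replicate 1), while Dpysl2 fell from 354 ± 38.9 to 222 ± 7.32 CPM. Genes that link the membrane to the actin and spectrin cortex split as well, 5 of 13 rising and 4 falling. The band 4.1 gene Epb4.1 rose from 61.4 ± 12.02 to 134 ± 8.37 CPM and the ankyrin gene Ank2 from 56.0 ± 10.3 to 117 ± 7.37 CPM, and the relatives Epb4.1l2 and Epb4.1l3 fell, each by 1.53 on the log2 scale.

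Of 19 other microtubule-associated protein genes, 9 rose and 7 fell, with a median difference of 0.18. Mapt, which encodes tau, a relative of MAP2, rose from 12.3 ± 1.57 to 63.8 ± 0.178 CPM (log2 difference 2.29). Map7d2 rose from 2.70 ± 0.472 to 28.2 ± 3.88 CPM (2.98) and Map7 from 1.90 ± 0.217 to 14.7 ± 3.09 CPM (2.42), and Dclk1, a relative of doublecortin, fell from 136 ± 20.6 to 34.7 ± 4.65 CPM (-1.94). Of 14 kinases and anchors of MAP2, 5 rose and 5 fell. The Src family kinase gene Fyn rose from 99.2 ± 4.14 to 272 ± 9.51 CPM and Cdk5 from 65.3 ± 4.74 to 110.0 ± 1.22 CPM. Its activator gene Cdk5r1 rose from 2.04 ± 0.347 to 3.42 ± 0.416 CPM (limma adjusted p = 0.0140), a call that was lost under quantile normalisation (0.0969) and in DESeq2 (0.0561). Mark1, a kinase that releases MAP2 from microtubules, fell from 19.0 ± 6.96 to 0.429 ± 0.614 CPM. Its fold was 44.4 with all libraries and 246 when mNS replicate 3 was left out, since the mNS libraries held 0, 2 and 16 reads.

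Of the 5 tested genes for RNA-binding proteins of growth cone messages, 1 rose and 2 fell. Igf2bp3 rose from 87.0 ± 5.91 to 202 ± 24.6 CPM. Elavl1 fell from 247 ± 11.5 to 192 ± 4.79 CPM, and Igf2bp1 counted 90 reads in GL261 against 2 in mNS, 44.6 times as much per library size, with an exact 95% binomial interval of 12.002 to 374, again for counting error only. The GL261 libraries held 47, 21 and 22 of these reads, and both mNS reads came from replicate 1. Elavl4, whose protein is known to stabilise Gap43 mRNA in neurons, and its relative Elavl3 were not listed. The list counts include genes that averaged 1 CPM only through the group where they were higher. Among those named, these are Prkcq, Camk2b, Rtn1 and Dpysl5, under 1 CPM in GL261, and Ncam1, Mark1 and Igf2bp1, under 1 CPM in mNS.

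**Figure D4:**
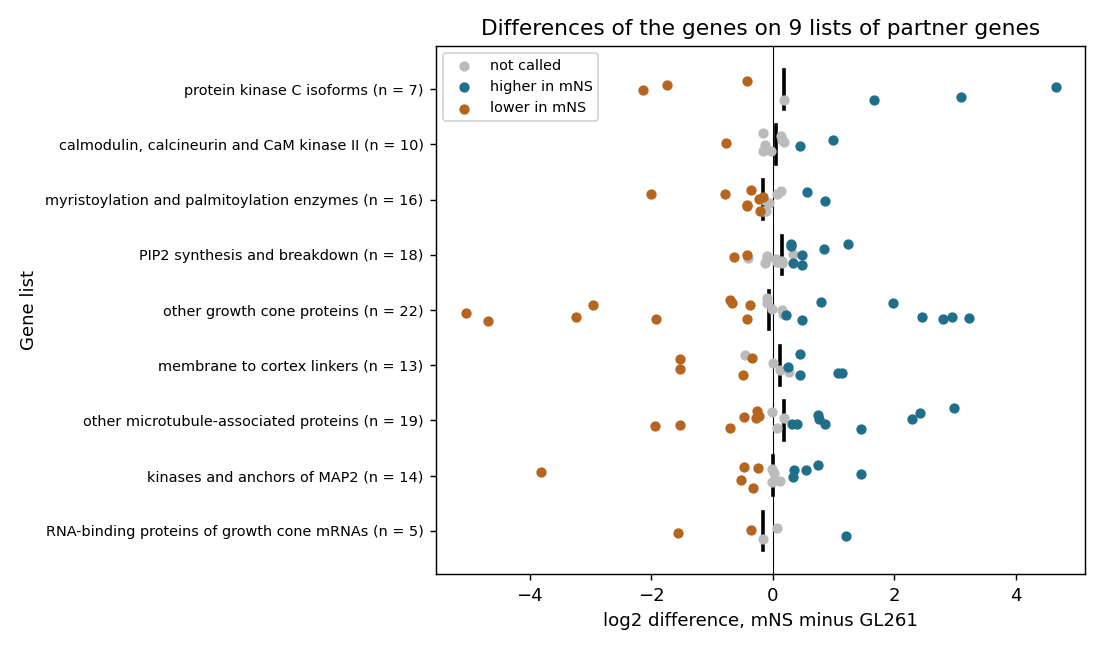
Log2 difference (mNS minus GL261) of each tested gene on the 9 lists of partner and related genes. Colours show whether it was called higher, called lower or not called in limma, and a black bar marks the list median. The medians lie between -0.17 and 0.19, and every list holds called genes on both sides of 0.

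The genes most like each member over the 6 libraries were found by Pearson's r of log2(CPM + 1) among 9109 genes that averaged 10 CPM or more. With 2 separated groups, r follows mainly the difference between the groups. Gap43 was closest to the monocarboxylate transporter gene Slc16a7 (r = 0.99996, 0.665 ± 0.151 CPM in GL261 and 19.7 ± 1.61 in mNS), followed by the phosphoinositide phosphatase gene Inpp5f (0.99973) and the kinase-inactivating phosphatase gene Phlpp2 (0.99972). Marcksl1 was closest to the sterol genes Tm7sf2 (0.99944) and Insig1 (0.99933) and to Gnl3l (0.99936), and Map2 to Bex2 (0.99863), Zfp64 (0.99834) and Arid4a (0.99813). Basp1 was closest to Pabpc4 (0.99942), Kpnb1 (0.99877) and Nhlrc3 (0.99860), and Marcks to Etf1 (0.99945), Acbd3 (0.99758) and Fzd3 (0.99745). Slc16a7, Tm7sf2 and Nhlrc3 passed the average of 10 CPM only through the group where they were higher. Slc16a7 had 7, 11 and 9 reads in the GL261 libraries. Tm7sf2 stood at 3.77 ± 0.161 CPM in GL261 and 24.5 ± 1.59 in mNS, and Nhlrc3 at 15.3 ± 0.904 and 8.05 ± 0.557. An r over 0.99 was reached by 414 genes for Gap43 and 436 for Marcksl1, but by 131 for Basp1, 52 for Map2 and 43 for Marcks.

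Markers of the cell types these cultures could hold were read beside the 5 genes. In bulk RNA, fewer cells of a type and less RNA per cell cannot be told apart. Of 14 neuron markers only 4 were listed, Tubb3 (lower in mNS), Syt1, Eno2 and Uchl1 (higher), and Dcx, Rbfox3, Snap25, Syp, Nefl, Nefm, Nefh, Elavl3, Elavl4 and Stmn2 were not. The summed level of the 4 was 406 to 414 CPM in GL261 and 282 to 289 CPM in mNS. Only Tubb3 fell, from 234 ± 11.7 to 8.85 ± 4.43 CPM. Uchl1 rose from 163 ± 7.80 to 246 ± 2.65 CPM, Eno2 from 13.2 ± 1.74 to 23.1 ± 2.73 and Syt1 from 0.767 ± 0.291 to 6.38 ± 1.75. Syt1 passed the filter only through mNS. All 7 oligodendrocyte progenitor markers were listed, 3 higher, 3 lower and 1 not called. The log2 differences were 5.57 for Olig2, 4.56 for Olig1 and 1.24 for Pdgfra, and -1.38 for Cspg4, -0.91 for Sox10 and -0.86 for Bcas1. Their sum went from 920.2 to 979.9 CPM in GL261 to 1223 to 1441 CPM in mNS. Of 7 neural stem cell markers 6 were listed, 2 higher, 3 lower and 1 not called, with sums of 8452 to 9438 CPM and 4579 to 5283 CPM. Most of that sum was Vim, at 7257 ± 617 CPM in GL261 and 3659 ± 117 in mNS. The log2 differences were 4.53 for Fabp7 and 0.85 for Msi1, and -3.44 for Hes1, -0.98 for Vim and -0.69 for Nes, while Sox2 was not called. Of 7 astrocyte markers 5 were listed, 2 higher and 3 lower, with sums of 240.5 to 325 CPM and 307 to 361 CPM. Fibroblast and mural cell markers had 4 of 8 listed, 3 lower and 1 not called, with sums of 285 to 447 CPM in GL261 and 94.0 to 229.6 CPM in mNS. Most of that sum was the gene not called, Col3a1, at 230 ± 93.2 CPM in GL261 and 146 ± 70.6 in mNS. Col1a1 fell from 127 ± 9.75 to 6.18 ± 2.03 CPM, Acta2 from 24.5 ± 1.41 to 0.266 ± 0.212 and Pdgfrb from 2.41 ± 0.748 to 0.123 ± 0.0401. Acta2 and Pdgfrb passed the filter only through GL261. Of 8 microglia markers 2 were listed, with sums of at most 3.13 CPM in any library, and of 6 endothelial markers 0 were listed. The part of these markers' differences in those of the 5 genes was not tested.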

How the data were processed

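Per the labels' protocols, stranded single-read libraries were made from ribosome-depleted total RNA of 3 GL261 and 3 mNS cultures. The build mm10 and the tools edgeR 3.4.2, HTSeq 0.5.3p9 and TopHat2 (version 2) stand in the submitters' processing notes, with no roles. The deposited values are a normalised signal, CPM with TMM factors per the series text. Divided by the smallest value of each column, 100% came out whole within 0.001 reads, which gave the reads per gene.

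The test was limma 3.58.1 (trend, two-sided) in R 4.3.3 on log2(CPM + 1), and p-values were adjusted by Benjamini-Hochberg over the 12006 genes that averaged 1 CPM or more. On recovered reads, edgeR 4.0.16 called 7651 genes by quasi-likelihood and 7702 by its exact test, and DESeq2 1.42.0 called 7353, against 7714 in limma. The script was run on simulated data in which few genes differed between the groups, unlike here. That run checks the code and not the error rate in these data. Other alternatives were pseudocounts, filters, scalings, weights and leaving out each library.

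The members and lists were chosen with earlier results of these data known. Of each partner list, up to 4 called genes with the largest differences were named, and for each member the 3 genes with the highest r among genes averaging 10 CPM or more; numbered gene models and small RNAs were left out. Of 197 list genes 152 were listed, 7 under an older symbol. Gene models and coding sequences were taken from GENCODE M21, whose assembly, GRCm38, is that of mm10, and windows were aligned with Biopython 1.88. Protein and promoter sequences were not used here.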

Additional observations from a re-analysis of the deposited data

How the results depend on the processing

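Each of the 5 genes kept its direction and its call under all 18 alternatives. The log2 difference ranged from 5.64 to 6.05 for Gap43, -1.53 to -1.32 for Basp1, -1.57 to -1.22 for Marcks, 1.82 to 1.94 for Marcksl1 and 0.57 to 0.76 for Map2, with a largest adjusted p of 0.00140, for Map2. Leaving out 1 library at a time gave 5.64 to 5.86 for Gap43, -1.53 to -1.35 for Basp1, -1.54 to -1.22 for Marcks, 1.82 to 1.91 for Marcksl1 and 0.57 to 0.73 for Map2. The 2 ratios kept their direction under every alternative run on them, where no p could fall under the threshold. The count of called genes lay between 6603 and 9488 (6603 to 7781 without 1 library), and scaling the columns to a common sum moved the median difference of all genes by 0.08. For 62 other genes, those named by the rule with Crmp1, Dpysl2, Dpysl3, Dpysl5, Syt1, Eno2, Uchl1 and 6 oligodendrocyte progenitor markers, 1106 of 1110 values under the alternatives kept their call and direction, and the other 4 are the values of Pip4k2a and Cdk5r1 given above, whose cause was not tested. The markers of neural stem cells, astrocytes, microglia, and fibroblasts and mural cells were not followed under the alternatives, and neither were Prkcd, Prkce and Metap2. No paired analysis was possible because the labels number no replicates across the groups. Counting limits the values of Gap43 in GL261, where it averaged 4.19 CPM. It also limits those of Prkcq in GL261 and of Igf2bp1 and Mark1 in mNS, among other genes under 1 CPM in a group.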
